A study of Caenorhabditis elegans with 12 samples.

Results

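The salt response shared by both genotypes was taken as the mean difference between 100 mM NaCl and 100 mM KCl over pmk-1(km25) and N2 Caenorhabditis elegans, 6 NaCl libraries against 6 KCl libraries, with the group means of each genotype and the replicate number in the model. All 12 libraries of the series enter it. The 4 groups, each of 3 libraries, were pmk-1(km25) in NaCl, pmk-1(km25) in KCl, N2 in NaCl and N2 in KCl. N2 is the standard laboratory wild type, and km25 is a deletion allele of pmk-1. All groups were day 1 adults, sampled as whole animals after 4 h in one of the salt solutions with no bacterial food, so fasting was common to all of them. The study sets NaCl, as the low-potassium condition, against KCl, so the solutions differed in both cations. Of 46904 genes in the deposited table, 13353 had enough counts to be tested, and 679 of them had a shared salt effect.

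PMK-1 is a p38 mitogen-activated protein kinase that acts in the innate immunity and stress responses of the worm, mainly in intestine and epidermis. Sodium and potassium gradients across animal membranes are set by the sodium pump, a P-type ATPase, while the vacuolar proton pump acidifies organelles and energises transport in epithelia such as the intestine and the excretory canal. UDP-glucuronosyltransferases, cytochrome P450 enzymes, glutathione S-transferases and ABC transporters modify and export lipophilic compounds.

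Library totals ranged from 8931797 to 11445709 counts. Levels below are CPM, counts scaled to library size and by TMM, and effects are log2 ratios of NaCl to KCl from the edgeR quasi-likelihood fit, each with its standard error after ±. A call is an adjusted p (Benjamini-Hochberg, over all genes tested) under 0.05 in this fit, whose replicate number effect is common to both genotypes, unless another fit is named. Counts of the pmk-1 gene were present in the mutant, at 26.4, 22.6 and 21.9 CPM in pmk-1 NaCl, 21.3, 22.8 and 21.3 CPM in pmk-1 KCl, 24.2, 33.9 and 38.7 CPM in N2 NaCl and 33.6, 29.3 and 35.9 CPM in N2 KCl. Its mean over both salts was lower in the mutant (log2 -0.52 ± 0.13, edgeR adjusted p = 0.00557), a call lost in 4 other fits. The effect was -0.87 ± 0.34 with an embryo marker score in the model (edgeR adjusted p = 0.114), -0.29 ± 0.15 with the ribosomal RNA share (0.126), -0.54 ± 0.19 without all replicates numbered 2 (0.0523) and -0.38 ± 0.17 without all numbered 3 (0.106). A gene-level count includes parts of the gene outside a deletion, so it is a weak check of the genotype labels. The genotypes differed far more than the salts: 54.9% of genes tested were called for genotype. The libraries numbered 1 stood apart within both genotypes on the first principal component, which held 75.96% of the variance, and results are given without them where that matters. Ribosomal RNA made up 4.28% ± 0.737 of counts in pmk-1 NaCl, 1.78% ± 1.35 in pmk-1 KCl, 1.49% ± 0.886 in N2 NaCl and 1.65% ± 0.961 in N2 KCl (SD, n = 3 each). The labels call the libraries biological replicates and say no more about how they were separated.

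In NaCl, 547 genes rose over both genotypes (4.1% of genes tested) and 132 fell (0.989%). These shares are the background for the counts of list members called below. The median effect was 0.88 among the rises and -0.96 among the falls, against -0.02 over all genes tested. A rise of at least 1 on the log2 scale was seen in 244 of the 547, and 541 of them were protein coding. Of the 547 rises, 535 had the same sign in both genotypes, which a mean over both largely fixes, and 128 of the 132 falls did (66.5% of all genes tested had the same sign). Within each genotype the 3 NaCl libraries lay wholly above the 3 KCl libraries for 278 rises (2.76% of all genes tested did so) and wholly below for 46 falls (0.734%). In all 6 same-numbered pairs of libraries, 448 rises were higher in NaCl (9.74% of all genes) and 92 falls were lower (7.15%). Both counts come from the values that chose the genes, so they describe the called genes and are no further support for a shared effect.

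Size varied between genotypes. The median rise was 1.11 in pmk-1 and 0.54 in N2, and the median fall was -1.15 in pmk-1 and -0.64 in N2. Taken alone in the same fit, pmk-1 gave 679 calls (5.08%) and N2 131 calls (0.981%). Of the 547 rises, 52 were called in both genotypes, 359 in pmk-1 and not N2, 39 in N2 and not pmk-1, and 97 in neither alone. Of the 132 falls, these counts were 7, 85, 13 and 27. A call in pmk-1 and not in N2 does not show a difference between them. The test of that difference, the interaction, called 40 of all genes (0.3%), the log2 salt effect being higher in pmk-1 for 32 of them (0.24%) and lower for 8 (0.0599%). Of those 40, 32 were among the shared rises, 30 of them larger in pmk-1, and 2 among the falls. At an unadjusted p under 0.05 the interaction held 261 of the 547 rises and 53 of the 132 falls, against 7.79% of all genes tested. Over both salts, 193 of the rises were higher in pmk-1 than in N2 and 106 lower, and 79 of the falls were higher and 21 lower, against 30.4% and 24.5% of all genes tested. The counts moved with the treatment of replicate numbers: with a separate number effect in each genotype 1319 genes rose and 676 fell, and with no number effect 297 rose and 47 fell. Without the 4 libraries numbered 1, 673 rose and 429 fell. The embryo marker score in the model gave 614 rises and 175 falls, and the ribosomal RNA share gave 490 and 112. The 679 genes kept the sign of their effect in every alternative that tested them. These alternatives reuse all or most of the libraries that chose the genes, so the kept signs are no further support for a shared effect.

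**Figure D1:**
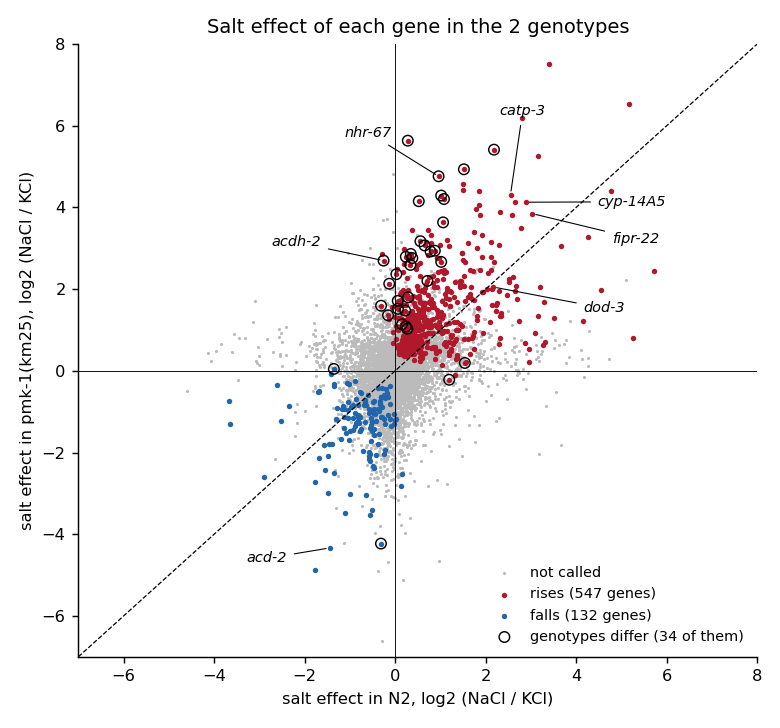
Salt effect (log2 NaCl over KCl) of each of 13353 genes in N2 (horizontal axis) and pmk-1(km25) (vertical axis). Red points are the 547 rises and blue points the 132 falls of the shared effect, grey points were not called, and black rings mark the 34 called genes whose salt effect differed between genotypes. The dashed line marks equal effects, and most red points lie above it.

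Ion transport genes held some of the largest rises. catp-3, which encodes an alpha subunit of the sodium/potassium pump family, was at 234, 89.5 and 46.01 CPM in pmk-1 NaCl, 13.3, 3.86 and 1.14 CPM in pmk-1 KCl, 814, 784 and 726 CPM in N2 NaCl and 79.8, 132 and 159 CPM in N2 KCl. The salts did not overlap in either genotype, and its level in N2 was above that in pmk-1 in each salt. The shared effect was 3.43 ± 0.41 (edgeR adjusted p = 0.000522), 4.31 ± 0.62 in pmk-1 and 2.55 ± 0.52 in N2. Of 7 pump subunit genes tested, catp-3 and catp-1 rose and none fell, with a median of 0.52. The count of rises was 2 to 4 when 1 library was left out (4 without pmk-1 KCl replicate 1), 5 with a number effect in each genotype, and 4, 0 and 1 without all libraries numbered 1, 2 and 3. catp-1, a related alpha subunit, was at 29.4, 18.7 and 13.6 CPM in pmk-1 NaCl, 18.8, 14.3 and 15.7 CPM in pmk-1 KCl, 35.5, 40.4 and 34.7 CPM in N2 NaCl and 18.2, 10.95 and 14.5 CPM in N2 KCl. Its salts separated in N2 and overlapped in pmk-1, the effect was 0.84 ± 0.16 (edgeR adjusted p = 0.00969), and the estimates were 0.30 ± 0.22 in pmk-1 and 1.37 ± 0.22 in N2, whose difference was not called (edgeR adjusted p = 0.292). eat-6, the main neuronal and muscle alpha subunit and the most abundant of the list per length, had 0.28 ± 0.11 and was not called (edgeR adjusted p = 0.199).

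Among sodium-coupled cotransporters and exchangers, 5 of 43 tested genes rose and 1 fell (median 0.14), with 2 to 5 rises when 1 library was left out. pitr-5, of the sodium-dependent phosphate transporter family, was at 22.9, 24.4 and 19.2 CPM in pmk-1 NaCl, 3.62, 1.51 and 1.24 CPM in pmk-1 KCl, 27.8, 24.02 and 11.4 CPM in N2 NaCl and 4.21, 2.95 and 1.90 CPM in N2 KCl. Every NaCl library stood above every KCl library across both genotypes, and the effect was 3.13 ± 0.21 (edgeR adjusted p = 9.22e-06), with the caution that pitr-5 overlaps F09G2.8 on the opposite strand. The related pitr-4 fell (edgeR adjusted p = 0.00163), at 0.228, 0 and 0 CPM in pmk-1 NaCl, 4.76, 1.41 and 1.86 CPM in pmk-1 KCl, 0.334, 0.52 and 0.615 CPM in N2 NaCl and 2.97, 1.43 and 1.303 CPM in N2 KCl. It was thus near 0 in NaCl in both genotypes. nac-3, a sodium-coupled dicarboxylate transporter, rose by 0.81 ± 0.16, and glt-1, a glutamate transporter, by 0.49 ± 0.11; the calls were lost in 1 and 8 of the 12 fits that each left out 1 library. nhx-6, a sodium-proton exchanger, was also called, but had no count in any KCl library of pmk-1, so no fold is given. nhx-5, named after its value was seen and overlapping F57C7.4 on the opposite strand, rose by 0.49 ± 0.12 and lost its call in 11 of those fits.

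Few channel genes were called, among them cng-1 and acd-2 with large effects. cng-1, a cyclic nucleotide-gated channel subunit, was at 29.3, 17.4 and 28.5 CPM in pmk-1 NaCl, 2.07, 1.32 and 1.35 CPM in pmk-1 KCl, 6.35, 5.20 and 4.83 CPM in N2 NaCl and 1.13, 1.14 and 2.51 CPM in N2 KCl. NaCl was above KCl without overlap in both genotypes (2.87 ± 0.23, edgeR adjusted p = 2.65e-05). acd-2, of the DEG/ENaC sodium channel family, was at 0.114, 0.792 and 0.364 CPM in pmk-1 NaCl, 9.32, 7.15 and 10.05 CPM in pmk-1 KCl, 3.67, 1.56 and 3.51 CPM in N2 NaCl and 4.001, 7.05 and 14.03 CPM in N2 KCl. NaCl lay below KCl without overlap in both genotypes. This was the largest fall among genes with a gene name that met the naming rule (-2.89 ± 0.37, edgeR adjusted p = 0.000798), and it was the 1 call among 12 members of that family. twk-33, a TWK-family potassium channel, fell by 1.27 ± 0.24 and was 1 of 3 calls among 47 potassium channel genes. The other 2 rose, 4.26% of the list against 4.1% of all genes tested, and 0 to 2 rose when 1 library was left out. Of 9 aquaporins none was called in edgeR or DESeq2, and 2 were higher at an unadjusted p under 0.05. Other edgeR fits called some of them: 3 rises and 1 fall with a number effect in each genotype, 1 fall with the embryo marker score, and 1 rise without pmk-1 KCl replicate 1 or without all libraries numbered 1.

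Many genes of the vacuolar proton pump rose by small amounts. Of its 21 genes, 13 rose (61.9%, against 4.1% of all genes tested) and none fell, with a median of 0.36 against -0.02 over all genes tested. All 6 pairs were higher in NaCl for 17 of the 21 genes (9.74% of all genes tested). For 14 the NaCl libraries lay above the KCl libraries without overlap in both genotypes (2.76% of all genes tested). The pump has a cytosolic V1 sector that hydrolyses ATP and a membrane V0 sector that carries protons. In V1, 8 of 9 genes rose. vha-12, the B subunit of V1, was at 424, 319 and 325 CPM in pmk-1 NaCl, 226, 163 and 160.3 CPM in pmk-1 KCl, 259, 294 and 292 CPM in N2 NaCl and 196, 241 and 252 CPM in N2 KCl. It had the largest effect of the group (0.63 ± 0.12, edgeR adjusted p = 0.00799), at 0.96 ± 0.16 in pmk-1 and 0.29 ± 0.16 in N2. vha-13, the catalytic A subunit, was at 665, 587 and 569 CPM in pmk-1 NaCl, 427, 344 and 331 CPM in pmk-1 KCl, 462, 477 and 519.8 CPM in N2 NaCl and 364, 412 and 407 CPM in N2 KCl. Here too the salts were apart in both genotypes (0.51 ± 0.09, edgeR adjusted p = 0.00553). vha-11, the C subunit, had the smallest adjusted p (0.50 ± 0.08, edgeR adjusted p = 0.00246), and vha-10, the G subunit, the next (0.40 ± 0.07). vha-8, the E subunit, also rose (0.41 ± 0.08). The exception in V1 was vha-18, an alternative H subunit gene that overlaps F52E1.2 on the opposite strand, named after its value was seen, at -0.01 ± 0.09.

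In the V0 sector and its accessory proteins, 5 of 8 genes rose. None of the 4 genes for the alternative a subunits (unc-32, vha-5, vha-6 and vha-7) was called in edgeR or DESeq2, with effects between -0.10 and 0.47 and 2 of them higher at an unadjusted p under 0.05. Those 2, vha-5 and vha-6, were both called in edgeR with a number effect in each genotype, without pmk-1 KCl replicate 1 and without all libraries numbered 1, and vha-5 also with the ribosomal RNA share, with no low-count filter and without N2 NaCl replicate 1. vha-6, the a subunit of the intestine, was at 540.1, 300.5 and 291 CPM in pmk-1 NaCl, 406, 153 and 178 CPM in pmk-1 KCl, 209, 174 and 185 CPM in N2 NaCl and 165, 161 and 151 CPM in N2 KCl. Its salts separated in N2 and overlapped in pmk-1, where library 1 was high in both salts (0.45 ± 0.15, edgeR adjusted p = 0.121). Called effects in the pump ran from 0.25 to 0.63. All 13 called pump genes had the larger estimate in pmk-1, and the median over the 21 was 0.56 in pmk-1 and 0.19 in N2. Taken alone, 13 pump genes were called in pmk-1. None was called in N2 in edgeR (lowest adjusted p = 0.617) or DESeq2, with 4 at an unadjusted p under 0.05. The interaction called no pump gene in edgeR (lowest adjusted p = 0.348) or DESeq2, but 11 of the 21 were at an unadjusted p under 0.05, against 7.79% of all genes tested, and 2 were called with a number effect in each genotype. The number of pump genes called was 6 to 13 when 1 library was left out, 9 with the embryo marker score, 10 with the ribosomal RNA share, 18 with a number effect in each genotype, and 0 without all replicates numbered 2 or without all numbered 3, where the medians were 0.39 and 0.32.

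**Figure D2:**
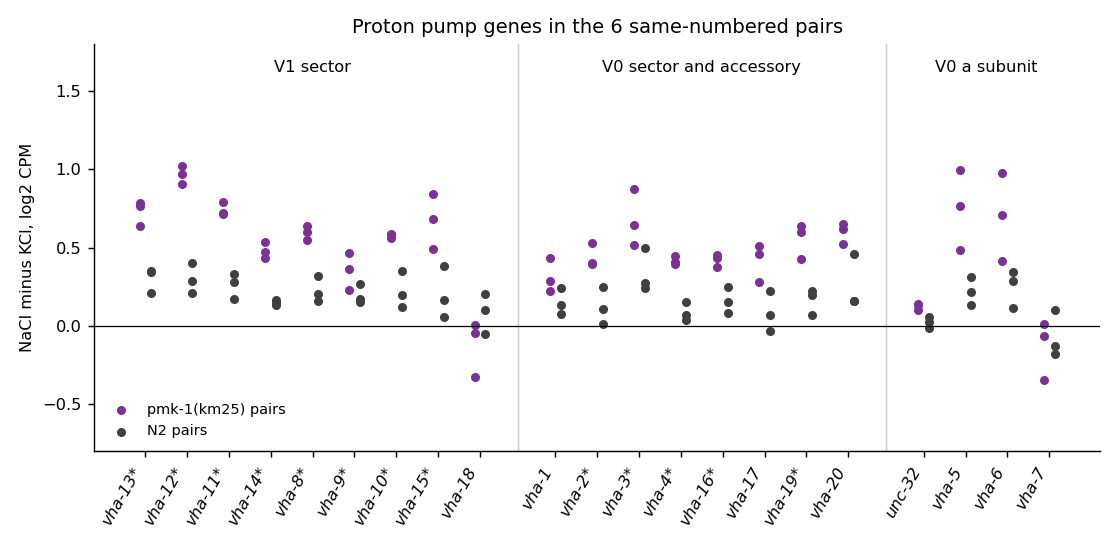
NaCl minus KCl difference in log2 CPM of each vacuolar proton pump gene in the 3 same-numbered pairs of pmk-1(km25) (purple, left of each gene) and of N2 (dark grey, right). A star after a name marks an edgeR adjusted p under 0.05 for the shared effect, and 8 of 9 V1 genes carry one, against none of the 4 a subunit genes.

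Enzymes that modify foreign compounds were among the largest rises. cyp-14A5, a cytochrome P450 gene at V:5421018-5423282 in the Ensembl annotation of WBcel235, was at 642, 331 and 337 CPM in pmk-1 NaCl, 23.7, 24.2 and 23.5 CPM in pmk-1 KCl, 125.7, 115 and 64.5 CPM in N2 NaCl and 17.6, 12.9 and 10.6 CPM in N2 KCl. NaCl levels were far above KCl levels in both genotypes (3.50 ± 0.15, edgeR adjusted p = 5.57e-07). Of 48 P450 genes tested, 6 rose and 3 fell (median 0.11). The other P450 rises named by the rule were cyp-36A1 (1.58 ± 0.17), cyp-43A1 (0.93 ± 0.12) and cyp-33C8 (0.87 ± 0.14), of which cyp-36A1 and cyp-43A1 overlap another gene on the opposite strand. cyp-29A4 fell, with -1.88 ± 0.33 and levels of at most 0.79 CPM in any NaCl library of either genotype.

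UDP-glucuronosyltransferases, which attach sugars to lipophilic compounds, gave 14 rises and 1 fall among 55 tested genes, with a median of 0.32. The family median was 0.59 in pmk-1 and 0.046 in N2. ugt-25 was at 71.6, 83.3 and 91.3 CPM in pmk-1 NaCl, 3.42, 8.84 and 5.90 CPM in pmk-1 KCl, 42.97, 85.5 and 65.7 CPM in N2 NaCl and 9.44, 14.1 and 8.12 CPM in N2 KCl. The salts were apart in both genotypes (3.21 ± 0.16, edgeR adjusted p = 1.22e-06), although ugt-25 overlaps mlst-8 on the opposite strand. ugt-8 was at 9.36, 12.9 and 9.96 CPM in pmk-1 NaCl, 2.69, 3.95 and 1.04 CPM in pmk-1 KCl, 10.9, 21.2 and 29.6 CPM in N2 NaCl and 3.18, 4.67 and 2.005 CPM in N2 KCl. Its effect was 2.09 ± 0.43 in pmk-1 and 2.67 ± 0.42 in N2, and the 95% interval of the difference ran from -1.89 to 0.72. ugt-63, ugt-66, ugt-29, ugt-28 and ugt-26 also rose, with shared effects of 2.96 ± 0.36, 2.34 ± 0.24, 2.35 ± 0.16, 1.85 ± 0.17 and 1.603 ± 0.19. The fall was ugt-44, at 6.51, 3.40 and 2.19 CPM in pmk-1 NaCl, 21.5, 9.22 and 12.02 CPM in pmk-1 KCl, 14.8, 14.2 and 24.8 CPM in N2 NaCl and 44.4, 46.3 and 57.4 CPM in N2 KCl, with NaCl below KCl throughout each genotype (-1.63 ± 0.25, edgeR adjusted p = 0.00258). Between 10 and 14 of the family rose when 1 library was left out.

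**Figure D3:**
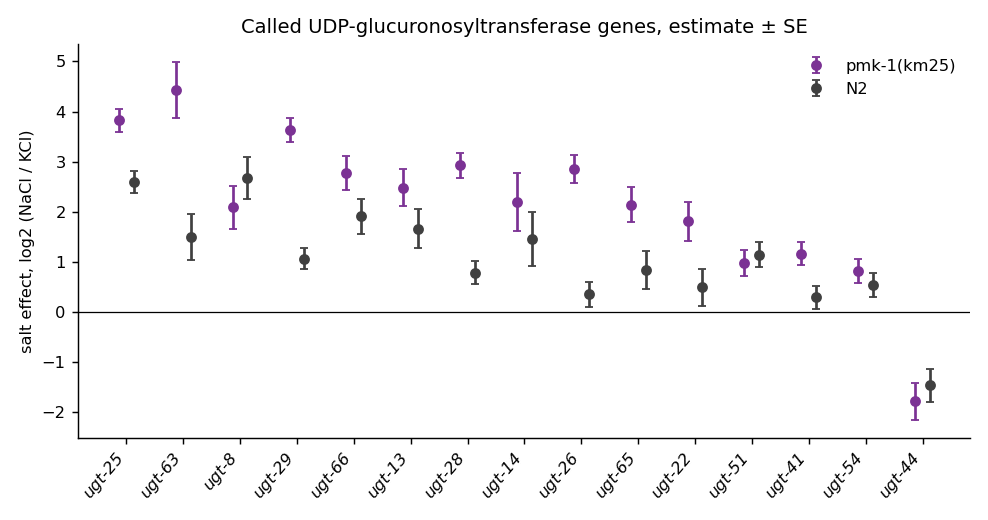
Salt effect (log2 NaCl over KCl, estimate ± SE) of the 15 called UDP-glucuronosyltransferase genes in pmk-1(km25) (purple, left of each gene) and N2 (dark grey, right), ordered by shared effect. The 14 rises lie above 0 in both genotypes and ugt-44 lies below 0 in both.

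Glutathione S-transferases were mixed, with 5 rises and 2 falls among 33 (median 0.18). The rises numbered 1 to 8 when 1 library was left out (1 without N2 KCl replicate 1, N2 NaCl replicate 3 or pmk-1 NaCl replicate 2, and 8 without pmk-1 KCl replicate 1), 1 with no number effect and 10 with one in each genotype. gst-9 rose by 1.78 ± 0.27, and gst-22 fell at 3.99, 3.51 and 3.28 CPM in pmk-1 NaCl, 8.49, 16.09 and 12.7 CPM in pmk-1 KCl, 10.7, 6.34 and 5.004 CPM in N2 NaCl and 23.5, 20.5 and 20.7 CPM in N2 KCl. The gst-22 salts were apart in both genotypes (-1.69 ± 0.22, edgeR adjusted p = 0.000798), with F21H7.12 on the opposite strand. gstk-1, a kappa-class enzyme, fell by 0.60 ± 0.12, a call lost in 2 fits that left out 1 library. ABC transporters gave 5 rises and no fall among 40 (median 0.07), and 3 to 5 rises when 1 library was left out. Their median was 0.20 in pmk-1 and -0.02 in N2. pgp-6, a P-glycoprotein, was at 309, 122 and 104.4 CPM in pmk-1 NaCl, 41.3, 6.02 and 7.46 CPM in pmk-1 KCl, 101, 75.1 and 60.05 CPM in N2 NaCl and 38.1, 42.9 and 50.8 CPM in N2 KCl. Its salts were apart in both genotypes, by a narrow margin in N2 (2.08 ± 0.31, edgeR adjusted p = 0.00213). The pgp-6 estimates were 3.44 ± 0.46 in pmk-1 and 0.72 ± 0.42 in N2. Their difference was not called (edgeR adjusted p = 0.123). mrp-2, of the multidrug resistance protein subfamily, and haf-7, a transporter of the HAF subfamily, rose by 1.28 ± 0.12 and 1.86 ± 0.18. Their estimates were 1.92 ± 0.17 and 2.76 ± 0.26 in pmk-1, and 0.63 ± 0.17 and 0.96 ± 0.24 in N2.

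**Figure D4:**
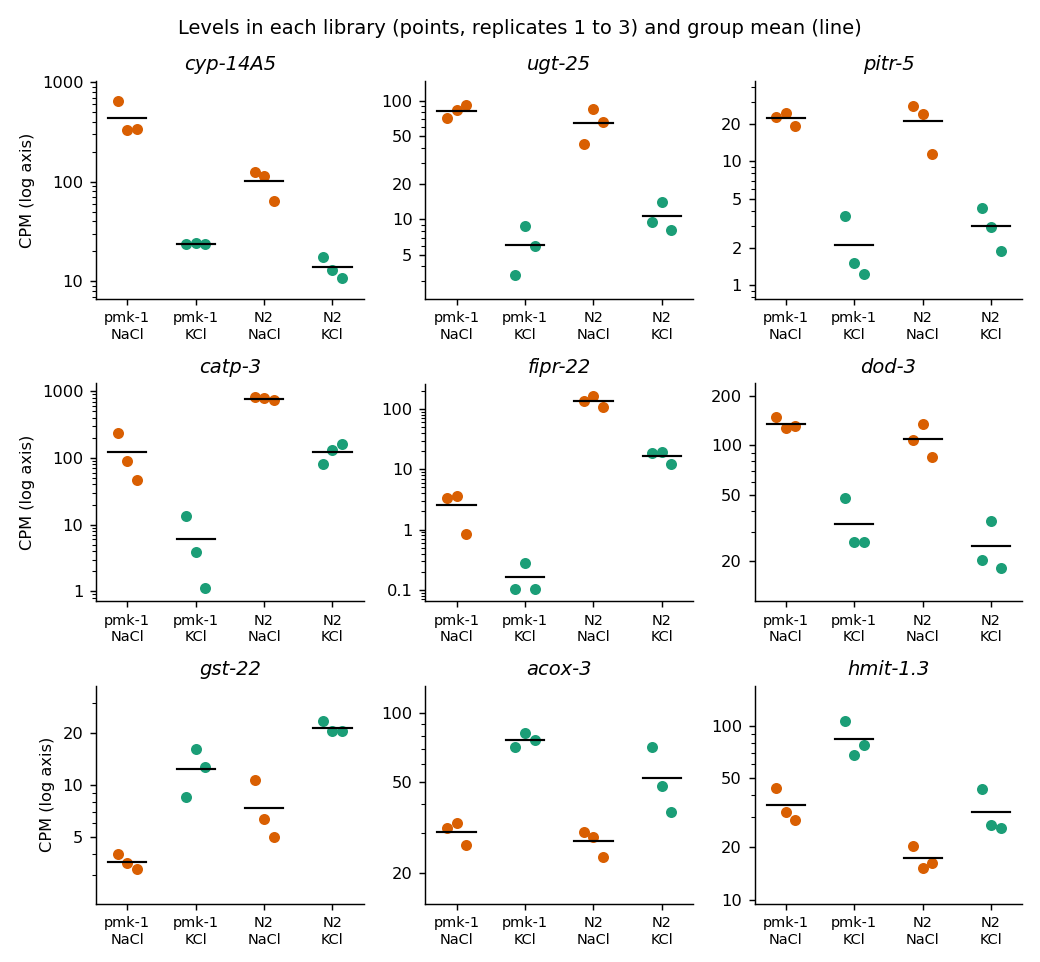
Levels (CPM, log axis) of 9 genes in each of the 12 libraries, with pmk-1(km25) left of N2 and NaCl (orange) left of KCl (green); lines are group means. In both genotypes the NaCl points lie above the KCl points for the first 6 genes and below them for gst-22, acox-3 and hmit-1.3.

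Secreted peptides and immune genes moved in part. fipr-22, of a family of fungus-induced peptides, was at 3.31, 3.62 and 0.85 CPM in pmk-1 NaCl, 0.104, 0.282 and 0.104 CPM in pmk-1 KCl, 135, 166 and 109.8 CPM in N2 NaCl and 18.9, 19.5 and 12.3 CPM in N2 KCl. It was far lower in pmk-1 than in N2 in each salt, and higher in NaCl without overlap in both (3.44 ± 0.24, edgeR adjusted p = 1.42e-05; 3.85 ± 0.47 in pmk-1 and 3.03 ± 0.20 in N2). In pmk-1 KCl fipr-22 had 1, 3 and 1 counts, so its fold in pmk-1 rests on few counts. Its mean in pmk-1 NaCl was 2.59 CPM, so it met the 5 CPM limit of the naming rule only through N2. Of 20 tested members of the fungus-induced peptide family 3 rose (1 to 4 when 1 library was left out). Among them, fipr-26 had no count in any KCl library of pmk-1. nlp-33, an epidermal antimicrobial peptide gene, was at 66.4, 42.3 and 44.2 CPM in pmk-1 NaCl, 30.6, 27.2 and 14.1 CPM in pmk-1 KCl, 101, 90.8 and 83.5 CPM in N2 NaCl and 47.9, 64.1 and 47.5 CPM in N2 KCl. It was 1 of 2 rises among 11 such genes, a count of 1 to 5 when 1 library was left out (0.95 ± 0.15, edgeR adjusted p = 0.0028). lys-8, a lysozyme gene with C17G10.13 on the opposite strand, rose by 0.83 ± 0.16 and spp-23, a saposin-like protein, by 1.65 ± 0.26, while the related spp-25 fell by 1.12 ± 0.24, a call lost in 4 fits that left out 1 library. None of 8 intestinal effectors of PMK-1 was called in edgeR or DESeq2, 1 was higher at an unadjusted p under 0.05, and their median was 0.26. That median was 0.49 in pmk-1 and 0.08 in N2.

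The p38 cascade and its regulators gave 4 rises and 1 fall among 13 genes (median 0.14). cebp-1, a bZIP transcription factor, was at 69.9, 49.01 and 36.1 CPM in pmk-1 NaCl, 18.95, 18.1 and 10.4 CPM in pmk-1 KCl, 27.5, 31.7 and 25.6 CPM in N2 NaCl and 13.2, 14.96 and 13.1 CPM in N2 KCl. NaCl was above KCl throughout each genotype (1.37 ± 0.15, edgeR adjusted p = 0.000237). nipi-3, a Tribbles-family pseudokinase, rose by 0.80 ± 0.09, and vhp-1, a phosphatase of KGB-1 and p38 kinases, by 0.64 ± 0.16. The nipi-3 estimates were 1.21 ± 0.12 in pmk-1 and 0.38 ± 0.12 in N2. tir-1, the adaptor upstream of the cascade, was at 74.3, 69.7 and 49.3 CPM in pmk-1 NaCl, 22.4, 20.4 and 15.3 CPM in pmk-1 KCl, 32.5, 43.7 and 49.95 CPM in N2 NaCl and 28.5, 41.5 and 46.1 CPM in N2 KCl. Its effect was 1.73 ± 0.24 in pmk-1 and 0.12 ± 0.23 in N2, and the interaction was not called (edgeR adjusted p = 0.0853). tpa-1, a protein kinase C, fell by 0.57 ± 0.14, and the calls of vhp-1 and tpa-1 were lost in 8 and 9 fits that left out 1 library.

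Secreted transthyretin-related proteins gave 7 rises and no fall among 51 (median 0.25), and 7 to 10 rose when 1 library was left out. Here the median was 0.15 in pmk-1 and 0.34 in N2. ttr-26 was at 19.1, 19.01 and 9.11 CPM in pmk-1 NaCl, 6.52, 4.89 and 3.31 CPM in pmk-1 KCl, 30.3, 36.9 and 19.8 CPM in N2 NaCl and 7.18, 7.91 and 3.61 CPM in N2 KCl, with salts apart in both genotypes (1.95 ± 0.14, edgeR adjusted p = 1.84e-05). ttr-37 and ttr-33 rose by 1.59 ± 0.15 and 1.77 ± 0.22. Cuticle collagens gave 9 rises among 118, a count that ran from 2 to 16 when 1 library was left out. The count was 0 with no number effect and 33 with one in each genotype. Without all libraries numbered 1, 2 and 3 it was 11, 1 and 3. col-149 was at 389, 49.6 and 35.9 CPM in pmk-1 NaCl, 95.8, 11.9 and 10.6 CPM in pmk-1 KCl, 6.01, 1.56 and 0.615 CPM in N2 NaCl and 3.49, 0.953 and 0.802 CPM in N2 KCl. Its library 1 was far above the other libraries in every group. Salts overlapped within each genotype, although the fit with the replicate number as a block called it (1.26 ± 0.19, edgeR adjusted p = 0.0026).

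Stress-response lists rose in part. pqm-1, a zinc-finger transcription factor of stress and lipid genes, was at 58.6, 54.6 and 42.7 CPM in pmk-1 NaCl, 24.03, 28.7 and 20.7 CPM in pmk-1 KCl, 41.9, 50.9 and 41.1 CPM in N2 NaCl and 16.6, 15.9 and 15.3 CPM in N2 KCl. The salts were apart in both genotypes (1.28 ± 0.10, edgeR adjusted p = 2.65e-05), with 1.09 ± 0.14 in pmk-1 and 1.48 ± 0.14 in N2. dod-3, a gene downstream of the insulin-pathway factor DAF-16, was at 148, 127 and 131 CPM in pmk-1 NaCl, 47.8, 25.9 and 25.9 CPM in pmk-1 KCl, 108, 135 and 84.8 CPM in N2 NaCl and 20.3, 34.8 and 18.1 CPM in N2 KCl. Its effects were close in size, 2.05 ± 0.25 in pmk-1 and 2.16 ± 0.25 in N2, and the 95% interval of their difference ran from -0.85 to 0.63. The list of DAF-16 and PQM-1 associated genes had 3 rises and 1 fall among 16, with 3 to 5 rises and 0 to 1 falls when 1 library was left out.

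The unfolded protein response of the endoplasmic reticulum had 4 rises and no fall among 18 genes (median 0.22, with 0.41 in pmk-1 and 0.01 in N2). The rises numbered 1 to 4 when 1 library was left out (1 without pmk-1 NaCl replicate 2 and 2 without N2 NaCl replicate 3), 2 with no number effect and 7 with one in each genotype. xbp-1, the transcription factor activated by IRE-1 splicing, was at 433, 439 and 331 CPM in pmk-1 NaCl, 202, 210.0 and 189.7 CPM in pmk-1 KCl, 340.4, 323 and 327 CPM in N2 NaCl and 226, 242 and 240.1 CPM in N2 KCl. It was higher in NaCl without overlap in both genotypes (0.74 ± 0.08, edgeR adjusted p = 0.000237). pek-1, the PERK kinase, rose by 0.40 ± 0.08 and hsp-4, the BiP chaperone, by 0.37 ± 0.08, calls lost in 3 and 9 fits that left out 1 library. Cytosolic heat shock genes gave 3 rises among 14, with 0 to 4 when 1 library was left out (0 without pmk-1 KCl replicate 2), 0 with no number effect, 7 in DESeq2 and 8 with a number effect in each genotype. hsp-43, a small heat shock protein, rose by 1.33 ± 0.28, a call lost in 2 fits that left out 1 library, and its pmk-1 NaCl libraries spread from 85.2 to 549 CPM. cdr-4, a cadmium-responsive gene, rose by 1.29 ± 0.23, in a metal-response list with 3 rises and 1 fall among 11. The fall was mtl-1, a metallothionein, whose estimates had opposite signs, -2.82 ± 0.49 in pmk-1 and 0.13 ± 0.48 in N2, and whose call was lost in 11 fits that left out 1 library.

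Genes of osmotic stress responses were mixed. tps-2, a trehalose phosphate synthase, was at 274, 221 and 205 CPM in pmk-1 NaCl, 153, 125.9 and 125 CPM in pmk-1 KCl, 195, 162 and 150.1 CPM in N2 NaCl and 152, 140.0 and 113.7 CPM in N2 KCl, a rise of 0.56 ± 0.07 (edgeR adjusted p = 0.000491) with salts apart in pmk-1 and overlapping in N2. hmit-1.3, a proton-coupled inositol transporter, was at 43.7, 32.03 and 28.7 CPM in pmk-1 NaCl, 106, 68.3 and 77.9 CPM in pmk-1 KCl, 20.4, 15.2 and 16.3 CPM in N2 NaCl and 43.5, 26.9 and 25.8 CPM in N2 KCl. It was lower in NaCl without overlap in both genotypes (-1.06 ± 0.09, edgeR adjusted p = 5.3e-05), and it overlaps mrpl-35 on the opposite strand. These were the calls among 9 genes of the list. In the hypoxia and hydrogen sulfide list 3 of 10 rose (1 to 3 when 1 library was left out), among them cysl-2, a cysteine synthase family member, by 0.59 ± 0.12, with vnut-1 on the opposite strand.

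The falls named by the rule included lipid genes. acox-3, a peroxisomal acyl-CoA oxidase, was at 31.4, 33.2 and 26.6 CPM in pmk-1 NaCl, 71.5, 82.4 and 76.8 CPM in pmk-1 KCl, 30.3, 28.8 and 23.5 CPM in N2 NaCl and 71.2, 48.01 and 36.99 CPM in N2 KCl. KCl levels lay above NaCl levels throughout (-1.13 ± 0.12, edgeR adjusted p = 0.000289). acs-7, an acyl-CoA synthetase of the ascaroside pathway, was at 11.3, 11.9 and 6.43 CPM in pmk-1 NaCl, 42.6, 34.3 and 44.95 CPM in pmk-1 KCl, 9.46, 10.3 and 7.20 CPM in N2 NaCl and 16.52, 12.3 and 11.3 CPM in N2 KCl, lower in NaCl without overlap in both genotypes (-1.32 ± 0.16, edgeR adjusted p = 0.000706) with C01G6.9 on the opposite strand. The acs-7 estimates were -2.07 ± 0.23 in pmk-1 and -0.57 ± 0.23 in N2. Their difference was not called (edgeR adjusted p = 0.106). The list of fat metabolism and fasting genes gave 2 rises and 2 falls among 32 (6.25% each, against 4.1% and 0.989% of all genes tested). fat-6, a stearoyl-CoA desaturase, rose by 1.12 ± 0.18, and acs-2, a mitochondrial acyl-CoA synthetase induced by fasting, fell by 0.75 ± 0.13, with -0.09 ± 0.18 in pmk-1, where salts overlapped, and -1.42 ± 0.19 in N2. In the list labelled propionate shunt and its regulators 3 of 13 rose (1 to 4 when 1 library was left out). hphd-1 rose by 0.51 ± 0.09, hach-1 by 0.35 ± 0.09 and pcca-1, a gene outside the shunt, by 0.29 ± 0.07. The hach-1 and pcca-1 calls were each lost in 9 fits that left out 1 library.

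Other falls named by the rule had diverse roles. egl-15, the fibroblast growth factor receptor, was at 27.6, 20.1 and 27.6 CPM in pmk-1 NaCl, 47.4, 45.7 and 43.4 CPM in pmk-1 KCl, 9.35, 5.93 and 6.76 CPM in N2 NaCl and 22.98, 14.7 and 12.03 CPM in N2 KCl. NaCl was below KCl in both genotypes (-1.02 ± 0.14, edgeR adjusted p = 0.00144). fozi-1, a zinc-finger protein of mesodermal fate, fell by 1.13 ± 0.17, and math-24, a MATH-domain gene, by 1.103 ± 0.18. clec-66, a C-type lectin, fell by 1.79 ± 0.43, a call lost in 8 fits that left out 1 library. Among genes with a sequence name only, K11H12.4, ZK896.5 and T03E6.8 fell by 2.25 ± 0.29, 2.00 ± 0.27 and 1.36 ± 0.16. K11H12.4 had at most 0.486 CPM in pmk-1 NaCl and at most 2.45 CPM in pmk-1 KCl, against at least 9.22 CPM in N2 NaCl and at least 31.98 CPM in N2 KCl.

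Among regulators, parg-2, a poly(ADP-ribose) glycohydrolase, was at 118.7, 63.04 and 49.5 CPM in pmk-1 NaCl, 4.14, 0.941 and 2.49 CPM in pmk-1 KCl, 16.14, 15.2 and 8.87 CPM in N2 NaCl and 3.18, 3.62 and 6.72 CPM in N2 KCl. The salts were apart in both genotypes (3.23 ± 0.31, edgeR adjusted p = 0.000111). nhr-67, a Tailless-family nuclear receptor, was at 22.5, 11.997 and 10.8 CPM in pmk-1 NaCl, 0.621, 0.282 and 0.725 CPM in pmk-1 KCl, 6.68, 10.7 and 6.32 CPM in N2 NaCl and 3.39, 3.24 and 5.61 CPM in N2 KCl. It was the largest of the rises (2.86 ± 0.31) in a family with 6 rises and 4 falls among 165 tested (median -0.07; 3.64% rose, against 4.1% of all genes, and 2.42% fell, against 0.989%; 3 to 4 rose and 1 to 4 fell when 1 library was left out), and nhr-62 was among the falls with -1.09 ± 0.20. srlf-3 was also among the 12 largest rises named by the rule (2.42 ± 0.38).

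The largest rises among genes known by a sequence name only that met the naming rule were F14F9.3 (4.49 ± 0.36), F10C2.7 (4.198 ± 0.33) and Y58A7A.4 (3.80 ± 0.22). In the KCl libraries F14F9.3 had 2 to 16 counts and F10C2.7 had 2 to 14. Their folds therefore rest on few counts in KCl. In pmk-1 NaCl, F14F9.3 spread from 18.3 to 112 CPM. Y58A7A.4 was at 250.4, 97.9 and 107 CPM in pmk-1 NaCl, 3.42, 2.73 and 3.94 CPM in pmk-1 KCl, 34.4, 42.9 and 26.6 CPM in N2 NaCl and 8.10, 7.91 and 6.92 CPM in N2 KCl. NaCl exceeded KCl in each genotype without overlap. Y58A7A.4 lay in a run of 4 rising neighbours at V:5077854-5110772 that also held Y58A7A.3, Y58A7A.5 and ugt-63, and F14F9.3 in a run at V:5132741-5177309 with F14F9.4 and ugt-51; the runs were chosen after their values were seen. Of the rises with a position, 94 of 546 (17.2%) had a rising tested neighbour, against 7.9% of all genes tested, and 13 of 132 falls (9.85%) had a falling one, against 1.96%. Chromosome V had 5.83% of its tested genes rising and chromosome X 5.56%, against 2.73% on chromosome I. Neighbours can be related copies, and their counts were not checked for shared reads.

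**Figure D5:**
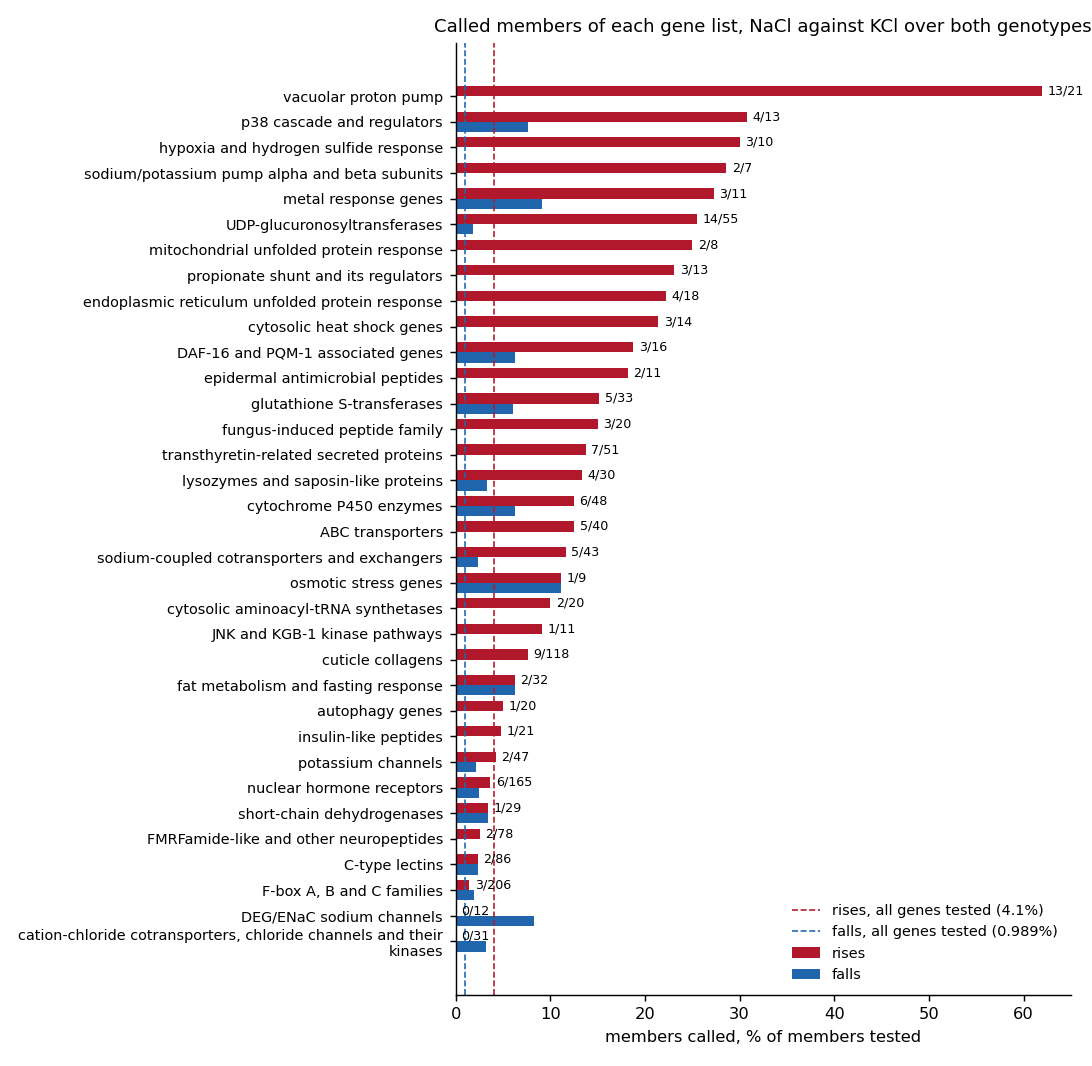
Share of the tested members of each gene list that rose (red) or fell (blue) in NaCl over both genotypes. Lists of at least 7 tested genes with a call are shown, without the tissue marker lists. Labels give rises over members tested, and dashed lines mark the shares among all genes, 4.1% and 0.989%. The vacuolar proton pump stands highest, with 13 of 21.

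Several lists gave no call in edgeR: the 31 proteasome subunits (median 0.07), the 79 cytosolic ribosomal proteins (median 0.27, 60 of them higher in NaCl in all 6 pairs), and the 15 superoxide dismutases, catalases, peroxiredoxins and SKN-1 glutathione genes (median 0.07). Of all genes tested, 9.74% were higher in all 6 pairs. At an unadjusted p under 0.05 these lists had 0, 62 and 2 genes higher and 0 lower, and DESeq2 called 7 ribosomal protein genes and none of the others. With a number effect in each genotype, 41 ribosomal protein genes, 0 proteasome genes and 1 of the redox genes rose, and 14 ribosomal protein genes rose without pmk-1 KCl replicate 3.

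Markers of tissues were counted in the same way. In whole animals, fewer cells of a type and less RNA per cell cannot be told apart. None of 44 sperm, 17 oocyte and eggshell, 44 embryo, 12 muscle, 12 neuron and 9 pharynx markers was called in edgeR, with medians of 0.51, -0.04, -0.67, 0.32, 0.08 and 0.48. The embryo median was -1.16 in pmk-1 and -0.19 in N2, and the sperm median 0.44 in pmk-1 and 0.54 in N2. At an unadjusted p under 0.05, 8 sperm, 8 muscle, 1 neuron and 3 pharynx markers were higher and 9 embryo markers were lower, and DESeq2 called 3 muscle markers and 1 pharynx marker as higher. Other edgeR fits did call markers. With the embryo marker score in the model 27 sperm markers and 1 muscle marker rose. With a number effect in each genotype 20 sperm, 7 muscle and 2 pharynx markers rose and 11 embryo markers fell. Without all libraries numbered 1, 1 sperm, 4 muscle, 2 neuron and 6 pharynx markers rose and 12 embryo markers fell. When 1 library was left out, up to 1 sperm, 2 muscle, 1 neuron and 4 pharynx markers rose and up to 6 embryo markers fell, the embryo, neuron and highest pharynx counts without pmk-1 KCl replicate 1. No oocyte and eggshell marker was called in any of these fits. The summed embryo markers ran from 156 to 232 CPM in pmk-1 NaCl, 178 to 362 CPM in pmk-1 KCl, 416 to 530.4 CPM in N2 NaCl and 469 to 668 CPM in N2 KCl, and hch-1, the hatching protease, was at 0 in 2 of 3 pmk-1 NaCl and 1 of 3 pmk-1 KCl libraries. The summed sperm markers ran from 2219 to 7099 CPM in pmk-1 NaCl, 1886 to 4494 CPM in pmk-1 KCl, 28.6 to 322 CPM in N2 NaCl and 16.44 to 193 CPM in N2 KCl.

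Of 10 intestine markers 2 rose (1 to 3 when 1 library was left out), act-5, the actin of the brush border, by 0.87 ± 0.13 and asp-1, an aspartic protease, by 0.35 ± 0.09, the second call lost in 10 fits that left out 1 library. The act-5 effect was 1.43 ± 0.18 in pmk-1 and 0.31 ± 0.18 in N2. Their difference was not called (edgeR adjusted p = 0.124). The median of the 10 intestine markers was 0.05. At an unadjusted p under 0.05, 4 were higher and 2 lower, and DESeq2 called 2 as higher and 1 as lower. With a number effect in each genotype, 4 of these markers rose and 2 fell. Their sum ran from 2835 to 4517 CPM in pmk-1 NaCl, 1879.6 to 3204 CPM in pmk-1 KCl, 2088 to 2576 CPM in N2 NaCl and 1762 to 2112 CPM in N2 KCl. Of 7 excretory canal markers only vha-8, itself a pump gene, rose. Their sum ran from 468 to 566 CPM in pmk-1 NaCl, 329 to 388 CPM in pmk-1 KCl, 405 to 440.1 CPM in N2 NaCl and 345 to 403 CPM in N2 KCl, without overlap of salts in either genotype. vha-8 made up most of this sum, at 368 to 430 CPM in pmk-1 NaCl and 238 to 283 CPM in pmk-1 KCl. In N2 it was at 317 to 329 CPM in NaCl and 254 to 294 CPM in KCl. The sum therefore says little about the other canal markers. Of 9 epidermis markers 2 rose (1 to 3 when 1 library was left out) and elt-3, an epidermal GATA factor, fell by 0.67 ± 0.12. The part of these tissue markers in the gene lists above was not tested beyond the counts given with the embryo score in the model.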

How the data were processed

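RNA of whole worms was sequenced in 12 libraries, 3 in each of 4 groups. The authors deposited 1 expected count per gene and library. Per the submitters' processing notes, the programs used were DESeq2 1.40.2, RSEM 1.3.3, STAR 2.7.1a and R 4.3.1. What each did, the build, the annotation and the strandedness were not given in the sources used here. Rounding changed nothing, as the table holds only whole numbers. Of 46904 identifiers, 46817 matched the Ensembl release of WBcel235 used here for names and positions.

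Counts were filtered with filterByExpr (13353 genes kept), scaled by TMM and fitted with the quasi-likelihood model of edgeR 4.0.16 (R 4.3.3), using 4 group means and the replicate number as a block (6 residual degrees of freedom). The shared effect is the mean of the salt effects of both genotypes. N2, pmk-1, their difference and the genotype effect came from the same fit, and p-values were adjusted by Benjamini-Hochberg over all genes tested. The standard error is the size of the log2 effect divided by the square root of F. Intervals of differences are 95% intervals. With 6 libraries per salt, the p-values measure the spread between these libraries only. In a test on simulated data for the shared effect (13082 genes), 91 of 100 genes changed by 1 on the log2 scale and 99 of 100 changed by 2 were called, with 10 false calls. The simulated data had no genotype or number effect. The changed genes had at least 5 CPM and the same change in both genotypes. These counts therefore do not give the rates of missed or false calls in the data used here.

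Across genes, libraries of the same number departed from their groups together in both salts, with correlations of 0.74, 0.39 and 0.54 for numbers 1, 2 and 3 in pmk-1 and 0.63, 0.20 and 0.50 in N2, so the numbers were taken to pair the salts within a genotype. Number 2 correlated more with another number, at 0.52 in pmk-1 and 0.26 in N2. The pairs were used for the counts of same-numbered pairs, while the main fit had a number effect common to both genotypes. Between genotypes, libraries numbered 1, 2 and 3 correlated at 0.42, 0.23 and 0.26 in NaCl and at 0.43, 0.07 and 0.33 in KCl.

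Genes were named by 1 rule. From genes called, with a mean of at least 5 CPM, the same sign in both genotypes and salts that did not overlap in either (275 genes), it took the 12 largest rises and falls with a gene name and the 3 largest of each with a sequence name only. From each of 50 gene lists it took up to 5 members by smallest adjusted p and the most abundant. The text prints part of them. The subject, the lists and the rule were chosen with earlier results of these data known. Alternatives were DESeq2 1.42.0, RLE scaling, no filter, no block, an additive model, marker and ribosomal RNA covariates, and libraries left out. A block within each genotype and the omission of all libraries numbered 2 or 3 were chosen after seeing the data.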

Additional observations from a re-analysis of the deposited data

Results flagged for a closer look

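For 34 of the genes called in the shared response, the salt effect itself differed between genotypes (edgeR interaction term, Benjamini-Hochberg adjusted over all genes tested, of which 0.3% were called). The 12 of them that are named in the text or here are given. The difference, pmk-1 minus N2 on the log2 scale, was 3.41 for parg-2, 3.80 for nhr-67, 2.58 for ugt-29, 2.14 for ugt-28, 2.52 for ugt-26 and 3.23 for Y58A7A.4. These genes rose in both genotypes by estimate, and more in pmk-1. It was 2.61 for Y58A7A.3, 3.13 for Y58A7A.5 and 3.63 for F14F9.4, neighbours of called genes that were named after their values were seen.

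The estimates had opposite signs for 3 of the 12 named genes. Of all 32 shared rises with a called difference, 27 had the same sign in both genotypes, and of the 2 falls 1 did. acdh-2, an acyl-CoA dehydrogenase, was at 146, 122 and 134 CPM in pmk-1 NaCl, 19.1, 23.1 and 20.3 CPM in pmk-1 KCl, 71.1, 115 and 116 CPM in N2 NaCl and 95.6, 121 and 143 CPM in N2 KCl. Its salt effect was 2.698 ± 0.18 in pmk-1 and -0.26 ± 0.16 in N2, a difference of 2.95 (edgeR adjusted p = 0.000636). asns-2, an asparagine synthetase named after its value was seen, had 2.13 ± 0.16 in pmk-1 and -0.13 ± 0.15 in N2, a difference of 2.26. For clec-1, a C-type lectin also named after its value was seen, the estimates were 0.05 ± 0.18 in pmk-1 and -1.36 ± 0.18 in N2, a difference of 1.401. The mean over genotypes therefore describes neither genotype of these 3 genes.

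Of the 12 differences, all were called with the embryo marker score in the model, without the libraries numbered 1 and in DESeq2, 9 with the ribosomal RNA share and 4 without the block. Only acdh-2 and asns-2 of them were called in all 12 fits that left out 1 library.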

How the results depend on the processing

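Without the replicate block, 297 genes rose and 47 fell, N2 gave 25 calls, pmk-1 362 and the interaction 5. With a replicate block within each genotype, 1319 rose and 676 fell, with 279 calls in N2, 2078 in pmk-1 and 282 in the interaction. An additive model gave 358 rises and 79 falls. DESeq2 gave 242 falls, 210 calls in N2 and 144 interactions, and omitting the filter gave 100 interactions. With the embryo score, N2 gave 211 calls, the interaction 99 and the genotype effect 1793 against 7332. Leaving out 1 library gave 341 to 635 rises, 72 to 235 falls, 20 to 186 calls in N2, 292 to 839 in pmk-1, 2 to 49 interactions and 6725 to 7361 genotype calls. Without all libraries numbered 1, 2 or 3 there were 673, 101 and 186 rises, 429, 9 and 27 falls, 221, 4 and 2 calls in N2, 1268, 88 and 169 in pmk-1, and 182, 0 and 0 interactions in edgeR. Those fits have fewer libraries. The causes of the other shifts were not tested. Of the calls in all, 80.6% were rises, against 61.1% without the libraries numbered 1 and 66.1% with the block within each genotype. The sign of vha-18, which was not called, turned to 0.056 with the embryo score, to 0.050 without all libraries numbered 1 and to between 0.0047 and 0.057 in 3 fits that left out 1 library; over all fits with libraries left out it ran from -0.079 to 0.057. The number of libraries limits small effects, and genes near the filter have few counts.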
